A study of Mus musculus with 4 samples.

Results

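Chromatin accessibility was followed through neural differentiation in mouse embryonic stem cells labelled Cdc14ab KO, which lack the phosphatases encoded by Cdc14a and Cdc14b. The comparison sets the peaks listed after 5 days in neural differentiation medium against those listed at day 0, and it uses 2 of the 4 libraries of the series, 1 library per day. Both knockout libraries came from blastocyst-derived stem cells of a line labelled clone 3. Cells at day 0 were in medium with LIF, the cytokine that holds mouse stem cells in the pluripotent state. Cells at day 5 had been moved to N2B27, a serum-free medium, with the growth factors EGF and FGF2 and no LIF. All cultures had been kept on feeder cells, which were removed by plating at low density on gelatin. The other 2 libraries are wild-type cells under the same pair of conditions, also labelled clone 3, and their values stand beside those of the knockout. Nuclei were assayed on the 10x Genomics Multiome platform, in which a transposase cuts accessible DNA in single nuclei, and each value here rests on where the accessible regions (peaks) of a whole library lie.

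When LIF is withdrawn, embryonic stem cells leave naive pluripotency, pass through a formative state and, in serum-free medium, take up a neural progenitor fate by default. Enhancers of the naive network lose accessibility along this route, while those of neural regulators open, and many developmental promoters start from a poised state in which Polycomb and Trithorax marks lie together. CDC14 phosphatases remove phosphate groups placed by cyclin-dependent kinases, and the series asks what they contribute to the exit from stemness.

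With 1 library per day and a single clone number, replicate spread could not be measured, and every value describes these libraries. The read depth is unknown because the lists carry no count. Fewer nuclei with an open region and less opening in each nucleus cannot be told apart in such lists. The knockout lists were close in size, with 222257 peaks at day 0 and 227878 at day 5, covering 190.3 and 197.3 Mb. Median peak widths were 877 and 882 bp. The wild-type lists were shorter, with 198860 peaks at day 0 and 189571 at day 5. The wild-type day 5 library differed at some Y-linked genes. It had 1 peak in each of Eif2s3y, Uty and Ddx3y, and the other 3 libraries had 0 in each of them. Kdm5d, the other Y-linked gene examined, had 0 in all 4 libraries. Peaks on the whole Y chromosome numbered 16 at day 0 and 14 at day 5 in the knockout, and 16 and 20 in the wild type. Wild-type values are therefore given side by side with those of the knockout, with no test of the difference, and a line or culture difference at wild-type day 5 cannot be told apart from its time course.

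Promoters give the sharpest view of single genes. A promoter was taken as the RefSeq window from 250 bases before to 50 bases after a transcript start, on the GRCm38.p6 build, whose chromosome coordinates are those of mm10. Of 16456 autosomal protein-coding genes with such a window, 11279 (68.5%) had a peak over it at both days and 4464 (27.1%) at neither day. The window was covered at day 5 only in 402 genes (2.44%) and at day 0 only in 311 (1.89%). Of 276 listed genes with a window, drawn from 26 lists of lineage, signalling and chromatin genes, 10 (3.62%) were covered at day 5 only and 6 (2.17%) at day 0 only, shares close to those of all genes. The 6 day 0 promoters belonged to Pou5f1, Trim71, Spp1, Pax6, Foxd3 and S100a4. The 10 day 5 promoters belonged to T, Neurog2, Hoxa2, Cyp26b1, Sp5, Msgn1, Sema3a, Efna5, Hoxa11 and Fgfr2.

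The 5 promoters printed here are examples of both directions, with peaks over most or all of the window on 1 day and none on the other, and the first 4 behaved alike in the wild type. All are RefSeq sequences of GRCm38.p6 in the direction of transcription, and capitals mark CpG dinucleotides. Pou5f1, the gene of the central POU factor of pluripotency, lies on the plus strand at chr17:35505782-35506081. Foxd3, a forkhead factor of stem cells and neural crest, lies on the plus strand at chr4:99656049-99656348. Neurog2, a proneural basic helix-loop-helix factor, lies on the plus strand at chr3:127632886-127633185. T, the T-box factor Brachyury of the primitive streak, lies on the plus strand at chr17:8434173-8434472. Cyp26b1, an enzyme that degrades retinoic acid, lies on the minus strand at chr6:84593761-84594060.
Pou5f1: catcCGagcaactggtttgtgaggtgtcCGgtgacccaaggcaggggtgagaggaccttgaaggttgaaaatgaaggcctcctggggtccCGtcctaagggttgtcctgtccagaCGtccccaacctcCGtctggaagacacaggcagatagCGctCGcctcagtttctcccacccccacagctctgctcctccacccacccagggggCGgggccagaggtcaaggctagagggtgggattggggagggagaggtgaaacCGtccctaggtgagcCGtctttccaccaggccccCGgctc
Foxd3: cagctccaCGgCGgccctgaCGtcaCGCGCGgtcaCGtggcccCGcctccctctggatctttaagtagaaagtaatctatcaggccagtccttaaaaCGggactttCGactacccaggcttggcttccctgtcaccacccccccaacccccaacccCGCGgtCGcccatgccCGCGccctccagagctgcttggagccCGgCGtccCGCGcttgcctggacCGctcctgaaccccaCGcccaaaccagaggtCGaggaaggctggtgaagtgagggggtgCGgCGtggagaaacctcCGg
Neurog2: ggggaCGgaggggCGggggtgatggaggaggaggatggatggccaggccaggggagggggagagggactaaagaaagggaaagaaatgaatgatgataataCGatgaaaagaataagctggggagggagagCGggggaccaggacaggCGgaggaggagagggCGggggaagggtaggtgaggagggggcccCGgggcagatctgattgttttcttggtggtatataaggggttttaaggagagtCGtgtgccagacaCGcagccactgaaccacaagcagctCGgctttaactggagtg
T: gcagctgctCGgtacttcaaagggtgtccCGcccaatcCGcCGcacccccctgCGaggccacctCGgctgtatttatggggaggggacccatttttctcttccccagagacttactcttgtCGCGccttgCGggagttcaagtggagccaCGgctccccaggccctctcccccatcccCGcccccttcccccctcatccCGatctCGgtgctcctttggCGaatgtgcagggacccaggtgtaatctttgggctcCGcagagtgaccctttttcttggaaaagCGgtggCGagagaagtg
Cyp26b1: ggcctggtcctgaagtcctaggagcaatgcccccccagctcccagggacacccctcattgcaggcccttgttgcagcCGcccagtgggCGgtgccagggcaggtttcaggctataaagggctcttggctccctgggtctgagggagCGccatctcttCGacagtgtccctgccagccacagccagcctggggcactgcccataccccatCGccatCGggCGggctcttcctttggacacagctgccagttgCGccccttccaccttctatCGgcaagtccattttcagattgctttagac

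At Pou5f1, a knockout day 0 peak of 733 bp (chr17:35505723-35506455) covered all 300 bp of the window printed above. No day 5 peak touched the window, and the nearest one began 695 bp downstream of it (chr17:35506776-35507526), at a place with no peak in the other 3 libraries. Wild-type cells also had all 300 bp covered at day 0 and 0 at day 5. At Foxd3, a day 0 peak of 907 bp (chr4:99655700-99656606) covered the 300 bp window, and the nearest day 5 peak lay 889 bp away. The wild type again had 300 bp at day 0 and 0 at day 5. So both promoters lost their listed peak in both genotypes.

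The reverse held at Neurog2 and T. A knockout day 5 peak of 893 bp (chr3:127632272-127633164) covered 279 bp of the Neurog2 window, and the nearest day 0 peak lay 699 bp away. In the wild type the same window had 0 bp at day 0 and 263 bp at day 5. At T, a day 5 peak of 930 bp (chr17:8433787-8434716) covered all 300 bp, and the nearest day 0 peak lay 3783 bp away. The wild type had 0 bp at day 0 and 300 bp at day 5 there. Hoxa2, a hindbrain patterning gene, was the remaining listed gene with a promoter peak at day 5 only in both genotypes, with 0 and 269 bp in the knockout.

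**Figure D1:**
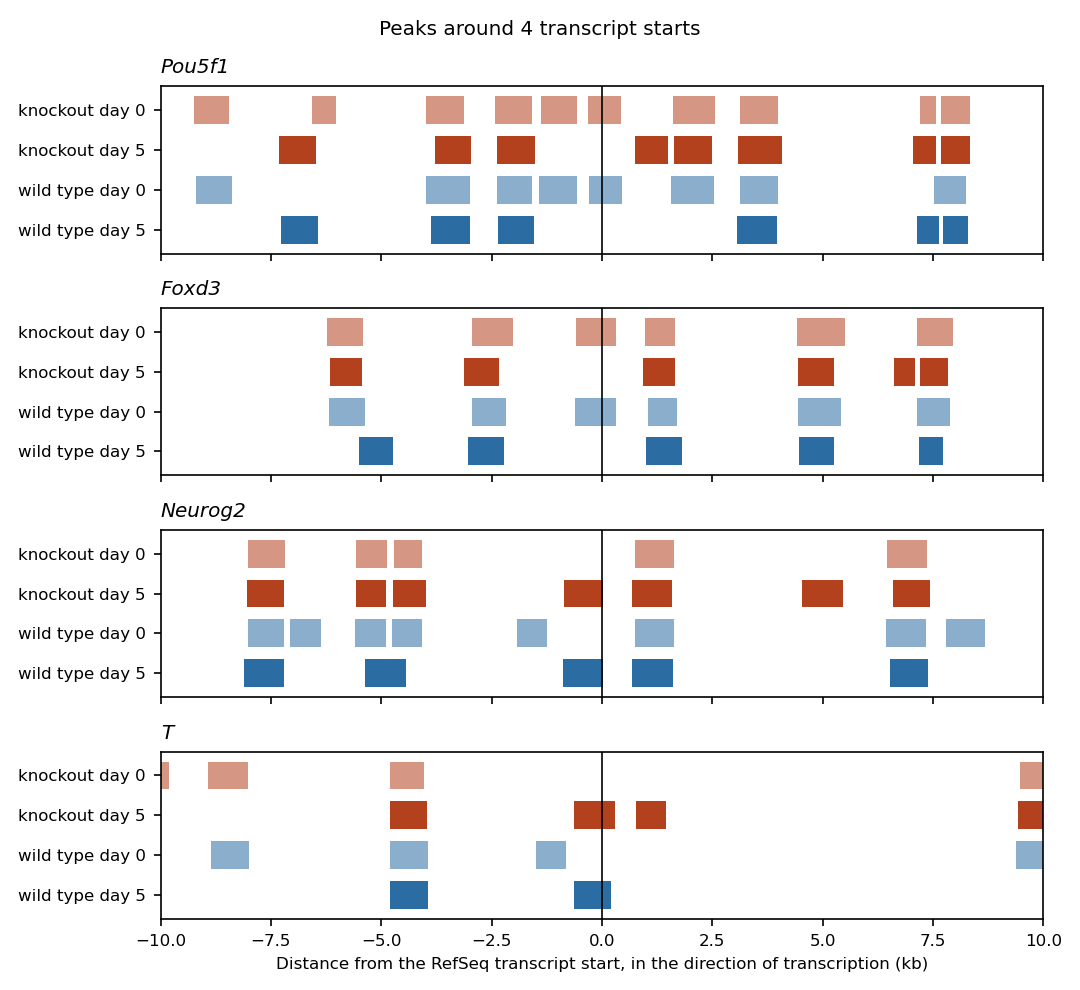
Peaks within 10 kb of the transcript starts of Pou5f1, Foxd3, Neurog2 and T, with the distance from the start in kb on the x axis and 1 row for each of the 4 libraries. Each block is 1 peak. The peak over the start is present only in the day 0 rows for Pou5f1 and Foxd3 and only in the day 5 rows for Neurog2 and T.

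In other genes the 2 genotypes differed in what was listed at the start. The Cyp26b1 window printed above had 0 bp at day 0 and 300 bp at day 5 in the knockout (peak chr6:84593450-84594188), and 0 bp at either day in the wild type. Sp5, a zinc finger target of Wnt signalling, had 0 and 300 bp in the knockout against 292 and 270 bp in the wild type. Sema3a, a secreted axon repellent, had 0 and 300 bp against 300 bp at both wild-type days. For these last genes it was the knockout day 0 list that lacked the peak. Pax6, a regulator of forebrain and eye, had 300 bp at knockout day 0 and 0 at day 5, where the nearest peak lay 505 bp away, against 300 bp at both wild-type days. Trim71, an RNA-binding regulator of stem cells, had 300 and 0 bp against 300 and 239 bp. S100a4, a calcium-binding protein of fibroblasts, had 300 and 0 bp in the knockout and 0 at both wild-type days.

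Some of these calls rest on where the window ends. At Spp1, Msgn1 and Fgfr2 the peak over the window overlapped a peak of the other day. That other peak lay 88, 4 and 1 bp from the window, so these peaks count as shared between days. With 1 kb on each side of the start, Pou5f1, Foxd3, Pax6, Spp1, S100a4, Neurog2, Hoxa2, Msgn1 and Fgfr2 counted as covered at both days, whereas T, Cyp26b1, Sp5, Sema3a, Efna5, Hoxa11 and Trim71 kept their class. The Efna5, Fgfr2 and Hoxa11 windows had only 19, 1 and 90 bp covered at day 5. With at least 100 bp required, these 3 counted as covered at neither day.

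Promoters covered on 1 day only were poor in CpG. The median window held 14 CpG dinucleotides over all 16456 genes, 21 where a peak was listed at both days, 5 where it was listed at day 5 only, 5 at day 0 only and 2 at neither. The printed promoters lay above the median of their classes, with 11 in Pou5f1, 25 in Foxd3, 10 in Neurog2, 17 in T and 9 in Cyp26b1. Short motifs were searched on both strands of each window. The E-box CAGCTG, the form bound by many proneural factors, was found in 21.9% of the day 5 promoters (95% exact interval 17.9 to 26.3), 19.9% of the day 0 promoters (15.6 to 24.8) and 15.3% of all windows. The AP-1 letters TGANTCA were found in 10.7% (7.85 to 14.1), 11.3% (7.97 to 15.3) and 7.04% in the same order. TATAAA was found in 16.9%, 13.5% and 13.3%, and in 6.55% of the windows covered at both days. For each of these motifs the intervals of the day 5 and day 0 promoters overlapped, so the letters searched did not separate the direction of change. The intervals cover counting error only.

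Genome-wide, a knockout peak counted as shared when 1 bp or more overlapped a peak of the other day. Of the 227878 day 5 peaks, 62387 (27.4%, 95% exact interval 27.2 to 27.6) had no day 0 peak and are called gained. Of the 222257 day 0 peaks, 56538 (25.4%, 25.3 to 25.6) had no day 5 peak and are called lost. The remaining 165719 day 0 peaks were kept. In bases, 52.1% of the sequence covered at either day was covered at both. The wild-type lists turned over more by the same rule, with 33.0% of day 5 peaks gained and 36.05% of day 0 peaks lost.

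Turnover was low at transcript starts. Within 1 kb of a start, 7.63% of day 0 peaks (7.22 to 8.05) were lost and 6.48% of day 5 peaks (6.10 to 6.88) were gained. In gene bodies 27.8% were lost and 28.2% gained, and in intergenic sequence 25.7% were lost and 29.6% gained. Gained peaks lay farther from starts than lost ones, with medians of 58.0 and 38.5 kb against 32.8 kb for kept peaks. Narrow peaks changed more often than wide ones: under 500 bp, 47.8% of day 0 peaks were lost and 49.1% of day 5 peaks gained, against 22.3% and 26.1% at 1000 bp or more. Peak height was not used here, and whether narrow peaks were nearer to the calling limit was not tested. The widest gained peak spanned 2057 bp in Iqgap2, a scaffold protein gene (chr13:95867370-95869426), and overlapped a wild-type day 5 peak. The widest lost peak spanned 2030 bp at Ccnl1, a cyclin of RNA processing (chr3:65949545-65951574), and overlapped no wild-type peak.

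Where a changed knockout peak overlapped a wild-type peak, it was more often one of the same day. Of the gained peaks, 37.1% (36.7 to 37.4) overlapped a wild-type day 5 peak and 19.96% (19.6 to 20.3) a wild-type day 0 peak. Of the lost peaks, 44.6% (44.2 to 44.99) overlapped a wild-type day 0 peak and 19.7% (19.4 to 20.1) a wild-type day 5 peak. Neither wild-type list held 52.9% of the gained and 46.3% of the lost peaks, against 7.63% of the kept ones. Kept peaks overlapped both wild-type lists in 67.6%, the day 0 list alone in 18.2% and the day 5 list alone in 6.54%.

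**Figure D2:**
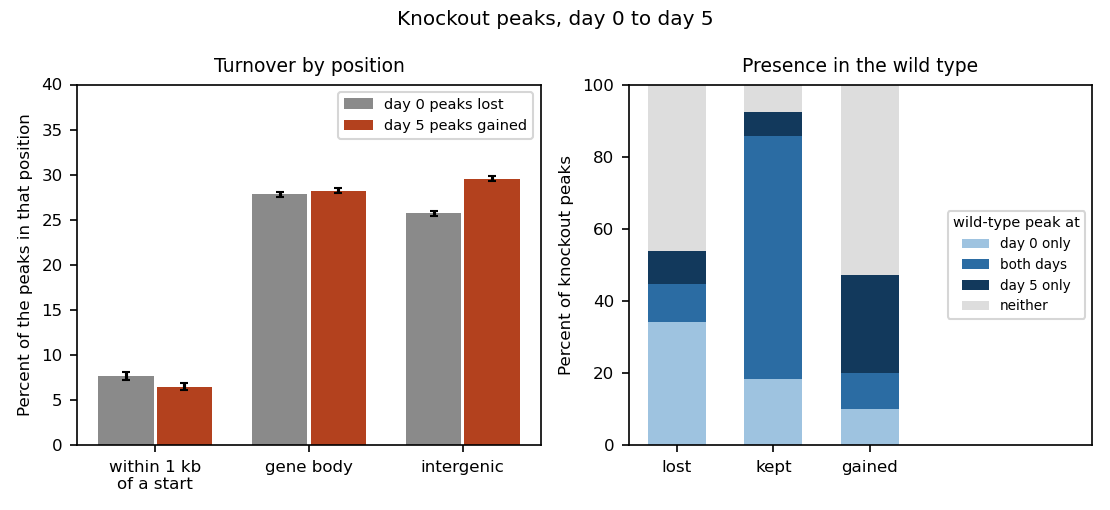
Left, percent of knockout day 0 peaks lost and day 5 peaks gained (y axis) within 1 kb of a transcript start, in gene bodies and in intergenic sequence, with 95% exact intervals as bars. Right, percent of lost, kept and gained knockout peaks that overlap wild-type peaks at day 0 only, both days, day 5 only or neither. Turnover near starts is 7.63% and 6.48% against 25.7% to 29.6% elsewhere, and 27.1% of gained peaks are in wild-type day 5 alone against 9.16% of lost ones.

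Accessibility of whole loci was measured as covered bp in the gene body and the 50 kb on each side. The change is the log2 ratio of day 5 to day 0 after adding 500 bp to each, relative to the median locus, and all locus values below are on this scale. The median locus itself stood at −0.04 in the knockout and at −0.23 in the wild type. A locus is called higher or lower at 0.5 or more from the median with a mean of at least 5000 covered bp. The mean is that of the 2 days, so a locus can pass through its higher day alone. Aqp4, with 3578 bp at day 0 and 8383 at day 5, did so, as did Rspo3 and Dkk1. Of 17655 loci past that minimum, 862 (4.88%) were called higher and 458 (2.59%) lower. The split is tied to the scaling and the window: scaled by the total covered bp, which lowers every ratio by 0.08, 594 were higher and 836 lower, so that higher calls made up 41.5% of all calls in place of 65.3%. With the gene body and 10 kb on each side they made up 48.5%, and only 115 of the 458 lower calls were shared. Each list median below is followed by its range over 7 alternative settings: pseudocounts of 100 and 2000 bp, the gene body alone, the gene body with 10 kb on each side, the number of peaks, the widest peaks in equal number and scaling by total covered bp. The gene lists hold 383 genes, of which 374 passed the minimum. Of these, 22 (5.88%) were called higher and 7 (1.87%) lower, again near the background, and 215 of 383 (56.1%) lay above the median locus, where 50% lie by construction.

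The knockout ratios were narrower than those of the wild type, with a middle 95% of −0.50 to 0.65 against −0.67 to 0.98. Both spreads are over loci that passed the minimum in the knockout, with no minimum set on wild-type coverage. Across the 17655 loci the ratios of the 2 genotypes, which share no library, had a Pearson correlation of 0.35 and a Spearman correlation of 0.33. Neighbouring loci share peaks, so these are descriptions. Of the 862 loci called higher in the knockout, 681 (79.0%) lay above the wild-type median, and 356 were called higher in both, which is 41.3% of the knockout calls and 22.3% of the 1594 wild-type calls. Of the 458 called lower, 300 (65.5%) lay below the wild-type median, and 83 were called in both, 18.1% of the knockout and 8.52% of the 974 wild-type calls. The share of higher calls was largest among long genes and gene-poor loci, whose values are given below.

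Core pluripotency loci moved little in the knockout. None of 12 was called in either direction, 5 lay above the median locus, and the list median was −0.01, beside −0.25 in the wild type. Over the alternative settings it ranged from −0.09 to 0.10, so its sign depended on the setting. Pou5f1 covered 27333 bp at knockout day 0 and 26304 at day 5 (−0.02), beside 25852 and 18630 bp in the wild type (−0.23). Of its 34 day 0 peaks in the knockout, 28 were kept and 6 lost, and 4 were gained. The loss at its start described above thus left most of the locus covered, though this locus holds 6 protein-coding genes. Nearer the start, among peaks lying between −20573 and 15572 bp from it, coverage fell in both genotypes. The knockout had 17 peaks and 13055 bp at day 0, and 13 peaks and 10641 bp at day 5. The wild type had 13 peaks and 11091 bp at day 0, and 10 peaks and 8100 bp at day 5. Nanog, a homeobox factor of the naive state, covered 27315 and 26195 bp (−0.02) in the knockout, and 27180 and 17773 bp (−0.37) in the wild type. Sall4, a zinc finger partner of these factors, covered 29661 and 27956 bp (−0.05), beside 29370 and 19489 bp (−0.35). In all 3 loci the wild-type day 5 library was the low one. Sox2, shared by stem cells and neural progenitors, covered 24120 and 24409 bp (0.05), beside 19494 and 18257 bp (0.14). Dppa4, a chromatin factor of early development, covered 23639 and 23808 bp (0.05), beside 15533 and 10188 bp (−0.35). Utf1, a stem cell factor of poised promoters, covered 19532 and 19593 bp (0.04), beside 16472 and 16312 bp (0.22). The lowest member was Lin28a, an RNA-binding inhibitor of let-7, with 26127 and 20350 bp (−0.32), where 9 peaks were lost and 1 gained. The highest was L1td1, a transposon-derived stem cell gene, with 21348 and 26597 bp (0.35).

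Of the peaks in core pluripotency loci, the knockout lost 21.2% of those of day 0 (17.0 to 25.9), against 25.6% over all autosomes, and the wild type lost 35.4% against 36.1%. Thus the core loci were near the background of their own genotype in both cases. Of the day 5 peaks in these loci, 19.2% were gained in the knockout and 14.0% in the wild type, against 27.2% and 33.1% over all autosomes.

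Naive pluripotency loci had a median of −0.04 (range −0.16 to −0.04, 8 of 18 above, wild type −0.05), and 1 was called lower. That locus was Klf5, a Krüppel-like factor that sustains self-renewal, with 29767 bp at day 0 and 20320 at day 5 in the knockout (−0.50) and 26316 and 18460 bp in the wild type (−0.27). It lost 14 peaks and gained 3. Tet2, a 5-methylcytosine oxidase, covered 25746 and 18979 bp (−0.39), and Tfcp2l1, a naive factor downstream of LIF, covered 28590 and 22941 bp (−0.28). Esrrb, an orphan nuclear receptor, covered 46704 and 40411 bp (−0.17), and Klf4 covered 14855 and 13032 bp (−0.15, wild type 0.46). These 4 were lower without reaching the call. Zfp42, the marker Rex1, covered 21951 and 20295 bp (−0.08), beside 28447 and 16654 bp in the wild type (−0.52). Prdm14 was at −0.03, Tbx3 at 0.05 and Fgf4 at 0.12. The highest naive locus was that of Nr5a2, a nuclear receptor, with 23894 and 29426 bp (0.33). Loci of LIF receptor and STAT3 signalling had a median of 0.09 (range −0.07 to 0.10, 5 of 9 above), from Stat3 at −0.31 to Jak2, its kinase, at 0.42.

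Formative loci, those of the state between naive pluripotency and lineage choice, lay above the median in 10 of 12 cases. Their median was 0.15 (range 0.07 to 0.25), beside −0.06 in the wild type, and no locus was called. Dnmt3b, a de novo DNA methyltransferase, covered 20297 and 23143 bp in the knockout (0.22), beside 24138 and 17805 bp in the wild type (−0.20). Wnt8a, a Wnt ligand of the early epiblast, covered 21106 and 25169 bp (0.28), beside 22488 and 13265 bp (−0.51). Here the knockout lists were higher at day 5 and the wild-type lists at day 0. Fgf5, a classic formative marker, covered 10160 and 11413 bp (0.20, wild type 0.66). Otx2, which drives the formative enhancer set, was the lowest member with 21098 and 17685 bp (−0.21, wild type −0.17).

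**Figure D3:**
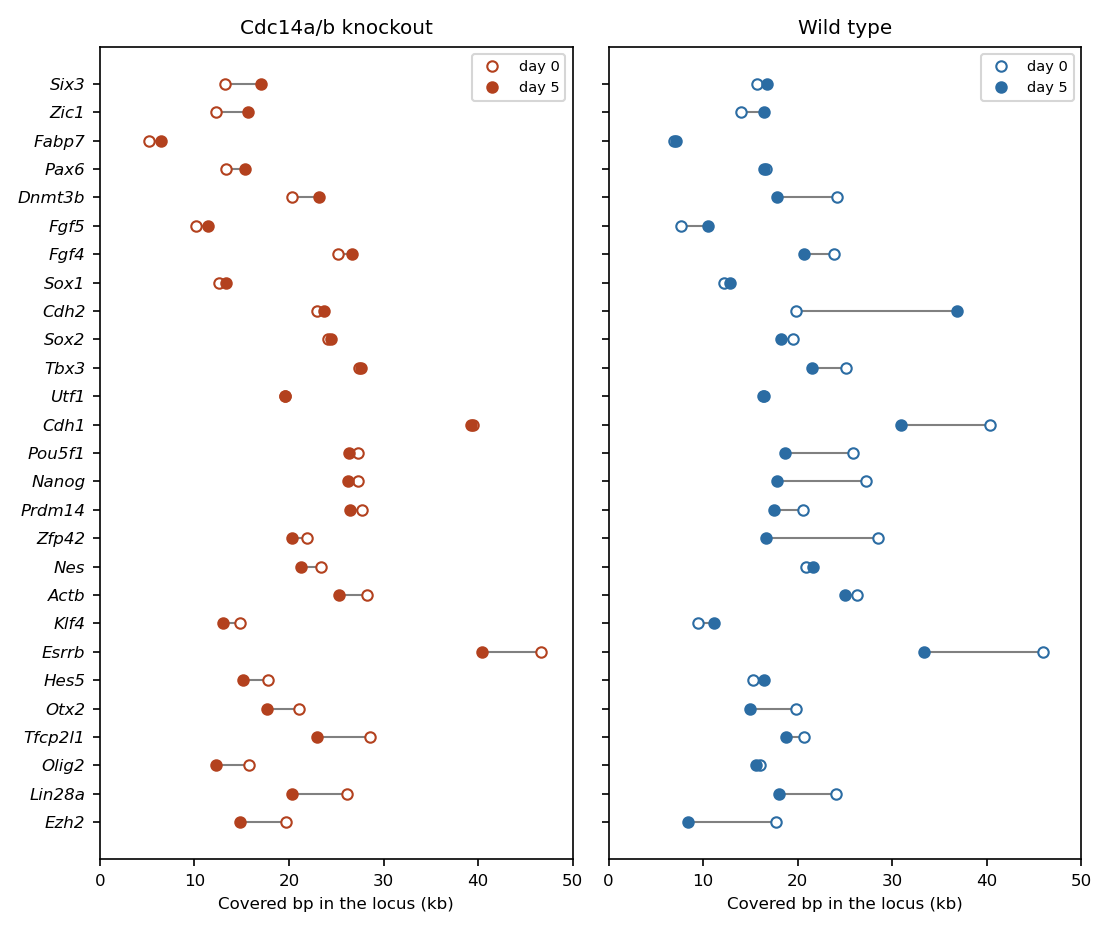
Covered bp (x axis, kb) in the loci of 27 genes at day 0 (open points) and day 5 (filled points), knockout left and wild type right, ordered by the knockout ratio. In the knockout the pairs at Pou5f1, Nanog, Sox2, Utf1 and Cdh1 nearly coincide, and in the wild type Pou5f1, Nanog, Zfp42 and Cdh1 cover less at day 5 and Cdh2 more. Values are not centred on the median locus.

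Neural progenitor loci lay above the median in 18 of 24 cases, with a median of 0.09 (range 0.01 to 0.11) beside 0.24 in the wild type. One locus was called, that of Sox9, a factor of neural stem cells and glial fate, with 11271 and 17128 bp in the knockout (0.62) and 12631 and 14583 bp in the wild type (0.43). The factors Zic1 and Zic4 are neighbours whose windows overlap. Zic1 covered 12280 and 15673 bp (0.37, wild type 0.45) with 14 peaks kept, 0 lost and 4 gained, and Zic4 was at 0.42. Six3, a regulator of the anterior forebrain, covered 13216 and 17057 bp (0.39, wild type 0.32), and Pax6 covered 13367 and 15357 bp (0.23, wild type 0.22). The Pax6 locus thus covered more at day 5 although the peak over its start was listed at day 0. Fabp7, a lipid carrier made by radial glia, covered 5233 and 6451 bp (0.31, wild type 0.27), and Sox1, the earliest neuroectoderm marker of the SoxB1 family, covered 12627 and 13347 bp (0.11, wild type 0.30).

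Some neural loci covered less at knockout day 5. Sox11, a SoxC factor of new neurons, covered 13779 and 10717 bp (−0.31), beside 10878 and 14900 bp in the wild type (0.67). Olig2, a factor of motor neuron and oligodendrocyte progenitors, covered 15773 and 12271 bp (−0.31), beside 15984 and 15609 bp in the wild type (0.20). Hes5, a Notch effector, covered 17774 and 15113 bp (−0.19, wild type 0.33), and Nes, which encodes nestin, was at −0.10 beside 0.28. At these 4 loci the knockout ratio was negative and the wild-type ratio positive, and that difference was not tested. At Olig2 the wild-type ratio was positive only relative to the median locus, since its covered bp also fell. The adhesion pair that switches as epithelium turns neural had the following values. Cdh2, N-cadherin, covered 22982 and 23715 bp in the knockout (0.08) and 19836 and 36818 bp in the wild type (1.11). Cdh1, E-cadherin, covered 39422 and 39295 bp (0.03), beside 40313 and 30979 bp (−0.14).

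Among neuron loci 14 of 22 lay above the median and 3 were called higher, with a list median of 0.05 (range −0.04 to 0.05, wild type 0.31). Syt1, the calcium sensor of synaptic vesicles, covered 20492 and 34188 bp (0.76, wild type 0.98). Snap25, a vesicle fusion protein, covered 9739 and 14390 bp (0.58, wild type 0.65). Neurog2, whose start gained a peak as described above, covered 7540 and 11235 bp (0.58, wild type 0.12), with 9 peaks kept, 0 lost and 5 gained. The lowest was Tubb3, the neuronal tubulin, with 15096 and 12834 bp (−0.19, wild type 0.44). Glial loci were even (7 of 14 above, median 0.01, range −0.07 to 0.13), and 2 were called higher. Aqp4, the astrocyte water channel, covered 3578 and 8383 bp (1.16, wild type 0.91), and Nfia, a gliogenic factor, covered 21130 and 32020 bp (0.62, wild type 1.62). The lowest was Aldoc, an astrocyte aldolase, with 17647 and 13038 bp (−0.39, wild type −0.12).

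Axon guidance loci had a median of 0.27 (range 0.19 to 0.27, 17 of 26 above, 5 called higher and 1 lower), beside 0.69 in the wild type. Epha7, an ephrin receptor, covered 7721 and 13723 bp (0.83, wild type 1.41), and Robo2, a Slit receptor, covered 31615 and 54598 bp (0.81, wild type 1.10). Dcc, the netrin receptor, covered 13426 and 22967 bp (0.79, wild type 2.50). Efna5 was at 0.71 and Epha5 at 0.65. Unc5c, another netrin receptor, ran the other way, with 23365 and 14351 bp in the knockout (−0.65) and a wild-type ratio of 0.72. These genes are long, with a median length of 299.5 kb. In the 13 of them over 300 kb the median was 0.38, and in the other 13 it was −0.01. All genes over 300 kb had a median of 0.23. Of the 13 long members, 11 stood above the median locus, 3 were called higher and 1 lower. Of the other 13, 6 stood above it and 2 were called higher, Epha7 and Efna5. In the wild type the long members had a median of 1.00 and the others 0.51. All wild-type loci of genes over 300 kb had 0.50, and those up to 300 kb −0.01. The part of gene length in the list median was not tested.

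Gene length and gene density moved with the locus ratio over the whole genome. The median was 0.00 for genes under 10 kb, −0.03 from 10 to 30 kb, −0.00 from 30 to 100 kb, 0.07 from 100 to 300 kb and 0.23 over 300 kb. Of 528 loci of genes over 300 kb past the minimum, 105 (19.9%) were called higher and 2 (0.379%) lower. Loci with 1 gene had a median of 0.12, and 14.5% were called higher and 3.43% lower. Loci with more than 8 genes had a median of −0.07, and 1.06% were called higher and 1.06% lower. The wild-type medians spanned more, from −0.04 to 0.50 by length and from −0.06 to 0.25 by density. Their part in the single-gene values was not tested.

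**Figure D4:**
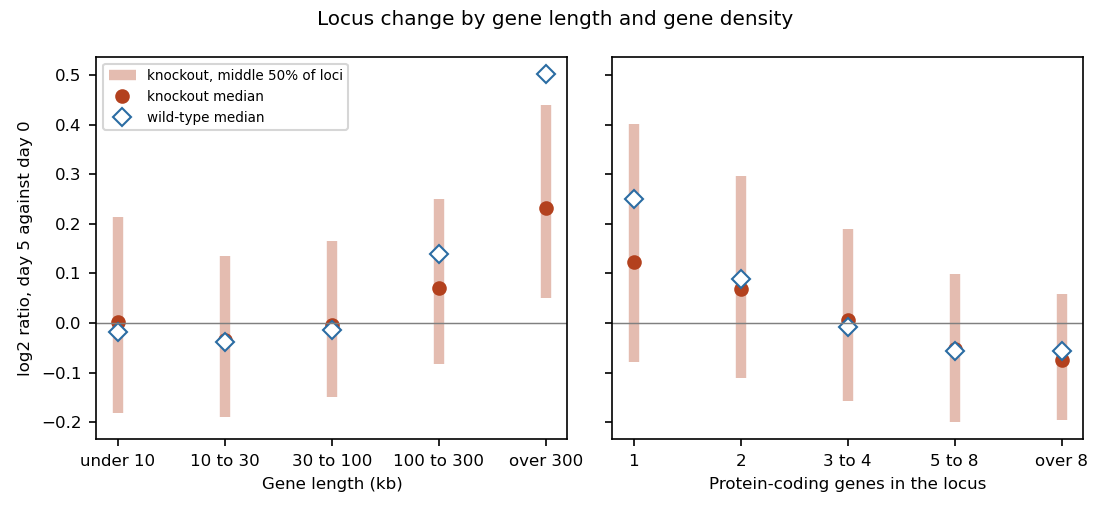
Median locus log2 ratio (y axis, relative to the median locus) by gene length in kb (left) and by number of protein-coding genes in the locus (right). Points are knockout medians, bars their middle 50% and diamonds wild-type medians. The knockout median reaches 0.23 in genes over 300 kb and declines from 0.12 with 1 gene to −0.07 with more than 8.

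Signalling lists were mixed. Wnt loci had a median of 0.10 (range 0.01 to 0.23, 10 of 16 above, 3 called higher). Rspo3, a secreted enhancer of Wnt signalling, covered 2502 and 7932 bp in the knockout and 3370 and 8119 bp in the wild type (1.53 and 1.39), with 3 peaks kept and 6 gained. Dkk1, a secreted Wnt antagonist, covered 4655 and 8794 bp (0.89), beside 6292 and 5860 bp in the wild type (0.14). Sp5, whose start also gained a peak in the knockout, covered 8584 and 12220 bp (0.52, wild type 0.34). The receptor gene Fzd7 was lowest, with 23373 and 16790 bp (−0.43). Notch loci lay mostly below the median (4 of 14 above, median −0.07, range −0.19 to −0.02). They held both a higher and a lower call. Dll1, a Notch ligand, covered 6299 and 12716 bp (0.99, wild type 0.76), and Hey2, a Notch target repressor, covered 10450 and 5965 bp (−0.72, wild type −0.11).

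FGF and EGF pathway loci had a median of −0.00 (range −0.09 to 0.06, 8 of 17 above). Egfr, the receptor of the EGF in the medium, was called higher with 18230 and 25890 bp (0.53, wild type 1.27), and Fgf2, the other factor supplied, was lowest with 17330 and 12302 bp (−0.44, wild type 0.25). Retinoic acid loci had a median of 0.07 (range −0.01 to 0.15, 5 of 10 above). Crabp1, a retinoic acid carrier, was called higher with 17411 and 24278 bp (0.50, wild type 0.52). Cyp26b1, whose start was covered at knockout day 5 alone, covered 14760 and 17059 bp (0.24, wild type 0.53). The receptor gene Rarg was lowest, with 28940 and 22489 bp (−0.32).

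Loci of other lineages check what else the cultures may hold. Endoderm loci lay above the median in 10 of 12 cases, with a median of 0.17 (range 0.09 to 0.27, wild type 0.23). Sox17, a definitive endoderm factor, covered 6318 and 12389 bp in the knockout (0.95) and 9300 and 10392 bp in the wild type (0.38). Foxa2, an endoderm and floor plate pioneer factor, covered 7424 and 11916 bp (0.68, wild type 0.78). Both were called higher, and Gata6 was at 0.40 with 13305 and 17254 bp (wild type 0.14). The 5 endoderm markers Sox17, Foxa2, Gata4, Gata6 and Sox7 summed to 65.7 kb at day 0 and 82.8 kb at day 5 in the knockout, and to 55.3 and 61.9 kb in the wild type. Trophoblast loci had a median of 0.09 (range −0.01 to 0.18, 9 of 11 above), from Eomes at −0.31 (wild type 0.15) to Elf5 at 0.43 (wild type −0.21). Mesoderm loci had a median of −0.09 (range −0.17 to −0.08, 5 of 12 above). The T locus covered 20420 and 19702 bp (−0.02), so the new peak at its start stood in a locus of near constant coverage.

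Fibroblast loci, which would mark feeder cells, had a median of −0.05 (range −0.13 to −0.01, 6 of 16 above, wild type 0.47), and the 6 markers Col1a1, Col1a2, Col3a1, Postn, Twist1 and Prrx1 summed to 78.7 kb at day 0 and 67.1 kb at day 5, with 0 of 6 above the median locus. In the wild type they summed to 61.2 and 78.1 kb. Prrx1, a mesenchyme homeobox gene, was called lower in the knockout with 13465 and 6929 bp (−0.88), beside 9367 and 11601 bp in the wild type (0.52). The promoters of Col1a2, Col3a1, Postn and Twist1 were covered at both knockout days, and that of Prrx1 at neither. The part of remaining feeders in any result was not tested. Blood and endothelium loci had a median of −0.07 (range −0.30 to −0.07, 2 of 12 above), and epidermis and neural crest loci −0.08 (range −0.16 to −0.01, 5 of 13), with Krt14, a basal keratin, called lower at 22299 and 13947 bp (−0.62, wild type −0.53). In adhesion and epithelial transition loci the median was 0.01 (range −0.07 to 0.05, 6 of 12 above), and Zeb1, a repressor of epithelial genes, was called higher at 13270 and 18989 bp (0.54, wild type 1.13).

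The labels were set against defining markers. The promoters of the pluripotency markers Sox2, Nanog, Zfp42 and Esrrb were covered at both knockout days, and that of Pou5f1 at day 0 only. The promoters of the neural progenitor markers Sox1, Nes, Hes5 and Fabp7 were covered at both days, and that of Pax6 at day 0 only. Summed over their loci, the 5 pluripotency markers covered 147 kb at knockout day 0 and 138 kb at day 5, beside 147 and 105 kb in the wild type. The 5 neural progenitor markers covered 72.3 and 71.5 kb, beside 71.8 and 74.4 kb. The Pou5f1 promoter call did not hold with 1 kb on each side of the start, as given above.

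**Figure D5:**
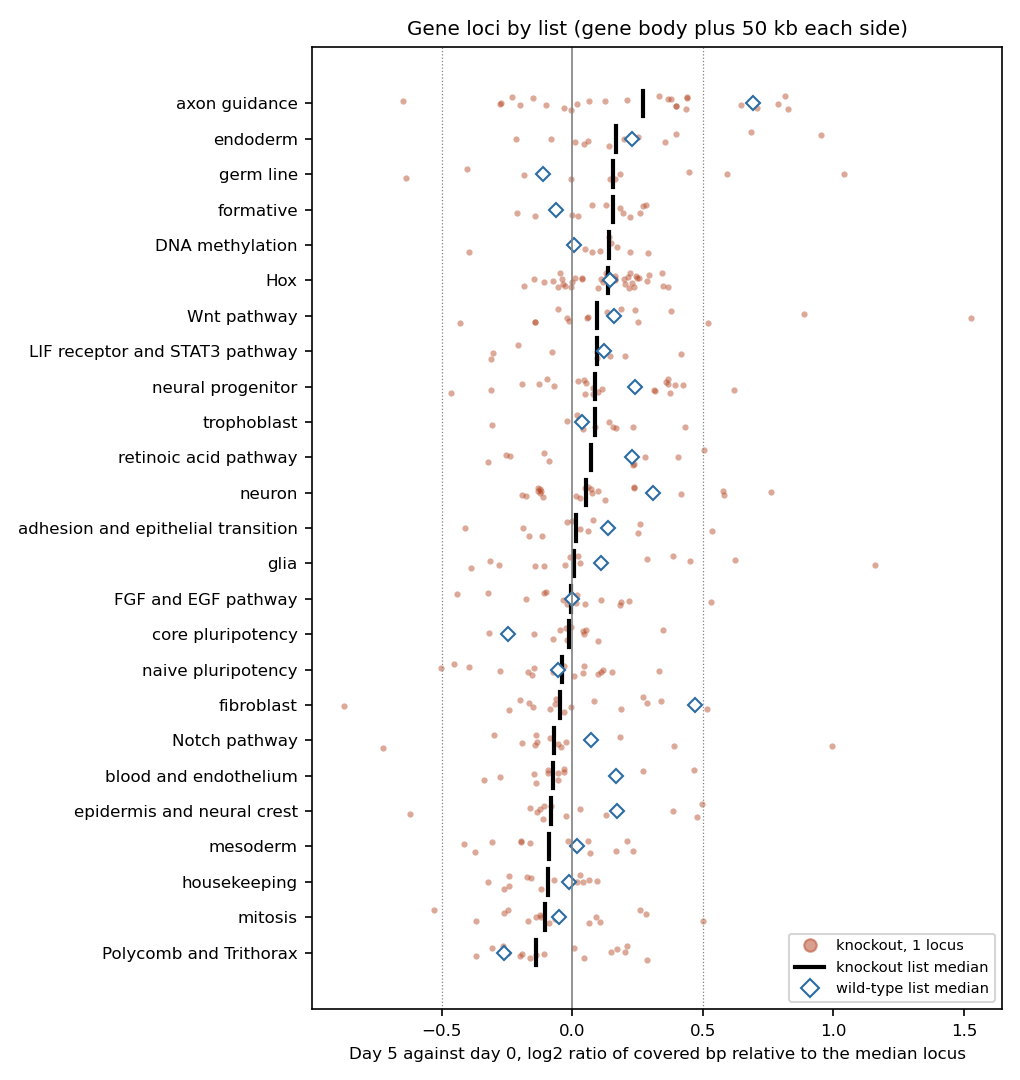
Locus log2 ratio of day 5 to day 0 (x axis, relative to the median locus) for the genes of 25 lists. Points are knockout loci, black bars knockout list medians and diamonds wild-type list medians, and dotted lines mark the call at 0.5. The 2-cell-like list is not drawn, since only 1 of its loci passed the minimum. The knockout axon guidance median of 0.27 is the highest drawn, and its wild-type counterpart is 0.69.

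Hox loci, textbook targets of Polycomb, had a median of 0.14 in both genotypes (29 of 39 above in the knockout, 26 in the wild type) and no calls. Genes of a cluster share most of their window, so the 4 clusters and not the 39 genes are the units. All 11 Hoxa genes lay above the median, from 0.21 to 0.37 with a median of 0.25, led by Hoxa5 with 23409 and 29560 bp. Hoxb had 9 of 10 above (median 0.16), Hoxd 6 of 9 (median 0.04) and Hoxc 3 of 9 (median −0.04). In the wild type the cluster medians were 0.19, 0.18, −0.07 and 0.10 for Hoxa, Hoxb, Hoxd and Hoxc. Of the peaks in Hox loci, 13.7% of those of day 0 were lost (9.36 to 19.1) and 17.7% of those of day 5 gained (12.9 to 23.4), against 25.6% and 27.2% over all autosomes. The low gained share was not particular to Hox loci. It was 14.3% in Polycomb and Trithorax, 15.0% in naive pluripotency and 15.5% in housekeeping loci. The lost shares in those lists were 23.4%, 21.9% and 23.5%. Over the alternative settings the list median ranged from 0.02 to 0.14.

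Polycomb and Trithorax loci had a median of −0.14 (range −0.22 to −0.13, 7 of 17 above, wild type −0.26) and no calls. Ezh2, the methyltransferase of Polycomb complex 2, was lowest with 19715 and 14793 bp in the knockout (−0.37) and 17710 and 8387 bp in the wild type (−0.80). Cbx2, a Polycomb complex 1 reader, was highest with 20461 and 24469 bp (0.29). DNA methylation loci had a median of 0.14 (range 0.06 to 0.22, 8 of 9 above, wild type 0.00), with Dnmt3l at 0.29 and Tet2 at −0.39. Mitosis loci had a median of −0.10 (6 of 16 above), which ranged from −0.38 with 10 kb on each side to −0.02 with gene bodies alone. The kinesin gene Cenpe was called higher with 12635 and 17640 bp (0.50), and Ccnb1, cyclin B1, which activates the kinase that CDC14 counters, lower with 17857 and 11924 bp (−0.53, wild type −0.29). Housekeeping loci had a median of −0.09 (range −0.18 to 0.01, 5 of 14 above), from Tbp at −0.32 to Gapdh at 0.09, with Actb at −0.12.

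Germ line loci had a median of 0.15 (6 of 10 above), beside −0.11 in the wild type. The knockout value did not hold in narrower windows, at 0.02 with 10 kb on each side and −0.01 with gene bodies alone. Ddx4, a germ cell helicase, was called higher with 12813 and 19107 bp (0.59, wild type 0.53), and Tex101, a germ cell surface protein, lower with 23924 and 14813 bp (−0.64, wild type −0.33), though its gene body alone was at 0.01. Loci of the 2-cell-like state, a rare totipotent-like fluctuation of stem cells, held few peaks, and 1 of 6 passed the minimum. Zscan4c had 0 bp at day 0 and 981 bp at day 5, Zscan4d 909 and 2984 bp, Tcstv1 1678 and 3824 bp, Tcstv3 1694 and 3561 bp, Zfp352 4284 and 1807 bp and Duxf3 7110 and 7108 bp. The list median was 0.97 (range 0.00 to 1.12, the lowest with 10 kb on each side), beside −0.48 in the wild type. These genes lie in families of near-identical copies, so their peaks are uncertain.

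The highest autosomal loci with a mean of at least 10000 covered bp, taking 1 gene per 500 kb, were led by Eepd1, a nuclease-like gene, with 7707 bp at day 0 and 21792 at day 5 (1.48, wild type 0.78), where 19 peaks were gained and 1 lost. Mrps11, a mitochondrial ribosomal protein gene, covered 5646 and 14628 bp (1.33, wild type 0.16), but its gene body alone was at −0.01, so the difference lay in the flanks. Nr3c2, the mineralocorticoid receptor, covered 14757 and 33156 bp (1.18, wild type 1.04). Grin2a, a glutamate receptor subunit of neurons, covered 18672 and 38839 bp (1.07, wild type 0.43), with 24 peaks gained and 1 lost. Khdrbs2, Akain1, Prkd1, Xrcc4, Kcnj15 and Lin7a completed the 10, from 1.07 to 1.20. The mean was again that of both days, so several of the 10, among them Eepd1 and Mrps11, passed through day 5 alone. All 10 had positive wild-type ratios, the smallest at 0.16. That smallest ratio, of Mrps11, was positive only relative to the median locus, with 9023 bp at wild-type day 0 and 8572 at day 5.

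The 10 lowest were less alike in the 2 genotypes. Cyb5d2 covered 14393 and 6773 bp (−0.999, wild type −0.29) and Ngp, a neutrophil granule gene, 19086 and 9354 bp (−0.96, wild type −0.75). Both, like several others of the 10, passed the minimum of 10000 bp through day 0 alone. Trps1, a zinc finger repressor, covered 23581 and 11888 bp (−0.92), beside 19876 and 20127 bp in the wild type (0.25). The unnamed gene 9430069I07Rik covered 14827 and 7794 bp (−0.85), beside 7788 and 13643 bp (1.00). With Prrx1 and Cdr2 (−0.87, wild type 0.09), 4 of the 10 had positive wild-type ratios. That of Cdr2 was positive only relative to the median locus, with 14649 bp at wild-type day 0 and 13208 at day 5. Ly6a, Snx22, Prpf4b and Manf completed the set, from −0.93 to −0.88. Snx22 lost the difference in narrower windows, at 0.01 with 10 kb on each side and 0.00 with the gene body alone.

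The autosomes were also cut into 100 kb windows without regard to genes. Of 13400 windows with a mean of at least 5000 covered bp, 205 (1.53%) were higher at day 5 by 1 or more on the log2 scale relative to the median window, and 66 (0.493%) lower. Here too the mean was that of both days. Most higher windows had under 5000 bp at day 0, and many lower ones at day 5, so they passed through their higher day. No protein-coding gene lay in 70 of the 205 and 28 of the 66. Of the 205, 174 lay above the wild-type median window, and of the 66, 31 lay below it. The highest window, chr7:107400001-107500000 in Syt9, a synaptotagmin gene, covered 886 and 10078 bp in the knockout (2.88, wild type 0.78). The next 4 held no protein-coding gene, at chr9:118200001-118300000 (2.84), chr18:15200001-15300000 (2.77), chr10:8000001-8100000 (2.70) and chr9:59100001-59200000 (2.36), and the wild-type ratio was positive in each of the 5, between 0.30 and 1.03.

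The lowest windows went against the wild type more often. The window chr12:35200001-35300000, with no protein-coding gene, covered 12945 bp at knockout day 0 and 835 at day 5 (−3.38), beside 1459 and 4648 bp in the wild type (1.40). The knockout day 0 library was the high one there, with 15 peaks against 1, 2 and 6 in the knockout day 5, wild-type day 0 and wild-type day 5 libraries. The window chr1:183900001-184000000 was at −2.40 (wild type 0.54), chr18:8000001-8100000 at −1.98 (−1.03) and chr1:70900001-71000000 at −1.98 (1.34).

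Called windows seldom adjoined. The 205 formed 198 runs, 7 of them of 2 or more windows, and the 66 formed 65. The widest joined runs were 200 kb long. One at chr18:15200001-15400000 reached Aqp4 and covered 4274 and 18575 bp (1.95, wild type 0.74). One at chr1:192200001-192400000 in Kcnh1, a potassium channel gene, covered 8388 and 22806 bp (1.34, wild type −0.07). The joined run of lower windows, chr13:15800001-16000000, held no protein-coding gene and covered 19727 and 7942 bp (−1.31, wild type 0.16).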

How the data were processed

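The values are peak positions (1 list per library, 3 columns, no count, score or signal) as the authors deposited them. Per the file headers, cellranger-arc 2.0.0 called the peaks separately in each library against mm10. Scanpy 1.7.2 also appears in the submitters' processing notes, beside Cell Ranger ARC 2.0.0. Removal of doublets and the peak threshold are not given in the sources used here. The lists were read with Python 3.11.15, numpy 2.4.6, pandas 2.3.3 and scipy 1.17.1, and the steps were tested on simulated data. Gene bodies came from a GRCm38.p6 table without strand and promoter windows from RefSeq, which gave a start for 16456 of 20661 autosomal protein-coding genes and 276 of 383 listed genes. Starts on chromosome 18 were not used here, so its peaks are left out of shares by position. Intervals are exact (Clopper-Pearson, 95%). With 1 library per group no test was run. Members and lists were chosen with earlier results of these data known. The rule for named genes took 27 set genes, the highest and lowest of each list, the 10 highest and 10 lowest loci, list members with a promoter peak at 1 day only, the 5 highest and 5 lowest windows, the widest joined runs and the widest changed peaks. Of these, 1 locus and 1 window are not reported here. Other genes, among them the remaining called list members, were named after their values were seen. Alternatives were other overlaps, pseudocounts (100 and 2000 bp), windows, minimums, peak sets and scalings.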

Additional observations from a re-analysis of the deposited data

Results flagged for a closer look

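Several results ran in opposite directions in the knockout and the wild type between day 0 and day 5. With 1 library per group none of these differences was tested, and the wild-type day 5 library is the one with peaks in Eif2s3y, Uty and Ddx3y. Among lists, the germ line median was 0.15 in the knockout and −0.11 in the wild type, and the 2-cell-like median was 0.97 and −0.48, over loci with few covered bp. Among loci, Prrx1 was at −0.88 and 0.52, Unc5c at −0.65 and 0.72, and 9430069I07Rik at −0.85 and 1.00. Among windows of 100 kb, the one starting at 35200001 on chromosome 12 was at −3.38 and 1.40 and the one starting at 70900001 on chromosome 1 at −1.98 and 1.34. In each of these 3 loci and 2 windows the knockout covered fewer bp at day 5 and the wild type more. Only the lists, the named loci and the 5 highest and 5 lowest windows were searched for this flag. Other called windows ran opposite in either sense. The window chr3:56100001-56200000 in Nbea was at 1.68 in the knockout and −1.24 in the wild type. The window chr1:81900001-82000000 was at −1.42 and 3.30.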

How the results depend on the processing

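No paired analysis was possible because each group held 1 library. Peak lists without counts leave the depth unknown, and a lower peak number at 1 day can come from depth alone. The share of gained peaks was 28.8% and of lost peaks 27.0% with 50% reciprocal overlap, and 26.9% and 26.5% with the widest peaks in equal number. Loci called higher numbered 497 with gene bodies alone and 1781 with no minimum. Loci called lower numbered 293 with a pseudocount of 2000 bp, 720 with 10 kb on each side (115 of the 458 shared), 836 scaled by total covered bp and 728 with no minimum. Scaled by total covered bp, list medians were 0.073 (formative), 0.086 (endoderm), 0.073 (germ line), 0.056 (Hox) and 0.059 (DNA methylation). The germ line median was 0.022 with 10 kb on each side and −0.014, reversed, with gene bodies alone, and the 2-cell-like median was 0.0037 with 10 kb. The Hox median was 0.025 with gene bodies alone and 0.10 by number of peaks. The mitosis median was −0.38 with 10 kb on each side, −0.018 with gene bodies alone, and −0.10 with a pseudocount of 2000 bp and by number of peaks. With gene bodies alone Mrps11 was at −0.010, Snx22 at 0.0039 and Tex101 at 0.012, and with 10 kb on each side Snx22 was at 0.0071. Windows called higher and lower numbered 80 and 8 at 500 kb, 924 and 250 with a minimum of 2000 bp, and 94 and 29 with a pseudocount of 2000 bp. The cause of these changes was not tested beyond the smaller or larger number of bases and features each setting takes in. Lists whose median lay within 0.1 of 0 passed that size, or shifted the share of their loci above the median locus beyond its counting interval, in 9 cases when scaled by total covered bp, 8 with gene bodies alone, 8 with 10 kb on each side, 4 by number of peaks and 3 with the widest peaks. Of 182 list medians under an alternative, 141 kept their side of 0.1 and 16 changed sign. The counts of promoters stayed within 1.5 times.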

Other observations

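The X chromosome, left out of the loci and windows above, went its own way in the knockout. It held 5565 peaks at day 0 and 6659 at day 5, and its covered bp stood 0.23 (log2) above the autosomes at day 5 relative to day 0. In the wild type it held 4273 and 4112 peaks, with a difference of 0.01. Of the knockout day 5 peaks on X, 33.3% were gained (95% exact interval 32.2 to 34.5), and of the day 0 peaks 20.1% were lost (19.0 to 21.1). On the autosomes as a whole 27.2% were gained and 25.6% lost. In the wild type, 31.9% of X peaks were gained and 34.4% lost. The cause was not tested, and the number of X chromosomes per cell at each day was not measured here.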
